A study of Mus musculus with 6 samples.

Results

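The 36 genes described here encode lysosomal enzymes, their activators, lysosomal membrane proteins and subunits of the vacuolar proton pump. They were taken as a list of symbols, and each symbol matched 1 of the 47729 genes counted. RNA was measured by RNA-seq in immortalized bone marrow-derived macrophages (BMMs), with 3 libraries from Aif1-/- and 3 from WT mice. Aif1 encodes allograft inflammatory factor-1, a calcium-binding protein of macrophages, and the study asked which genes change in macrophages that lack it. Both genotypes were C57BL/6J, and the marrow came from male mice aged 8 weeks. The marrow cells of both genotypes were differentiated into macrophages, immortalized with SV40 large T-antigen and kept in medium with 10% FBS and 120 ng/ml CSF-1, at passages 3 to 5. No treatment is given for either group, and genotype is the single difference between them in the labels. The labels do not say whether the 3 libraries of a genotype came from separately immortalized lines, and the p-values therefore measure the spread between these 6 samples.

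Lysosomes are the acid compartments in which macrophages break down what they engulf and what autophagy delivers. Soluble hydrolases, each with its own bond to cut, are made in the secretory pathway, tagged with mannose phosphate and carried to the lysosome by receptors. The vacuolar ATPase (V-ATPase) keeps the lumen acid. Its V1 sector hydrolyses ATP in the cytosol and its V0 sector carries protons through the membrane. The loss of a single hydrolase can cause a lysosomal storage disease, and macrophages are among the cells that store undigested material in several of them.

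Counts assigned to genes were 17707986 to 26486393 in the Aif1-/- libraries and 23253869 to 29314253 in the WT libraries. The correlation of log counts was 0.992 to 0.994 between Aif1-/- libraries and 0.977 to 0.988 between WT libraries, so WT replicates differed more from one another. WT replicate 3 stood apart, with 25.5% of its counted reads matched to no gene, against 32.4% and 40.4% in the other WT libraries and 33.6% to 35.7% in the Aif1-/- libraries. Aif1 itself had raw counts of 4, 4 and 1 in Aif1-/- replicates 1 to 3, against 220, 157 and 239 in WT replicates 1 to 3, which fits the labels. Of 10 macrophage markers, all had enough counts to be tested, 7 were higher and 1 (Cd14) was lower in Aif1-/- BMMs, and their summed level was 5751 to 5842 TPM (transcript abundance per length of exon, as a share of the library) in Aif1-/- and 4455 to 4733 TPM in WT libraries. For granulocytes, fibroblasts, T cells, B cells and mast cells, every marker fell below the filter on low counts. Of the 8 osteoclast markers, 3 could be tested and 2 were lower (Atp6v0d2 and Mmp9), Calcr was at 0 in all libraries, and the summed level was 5.65 to 8.75 TPM in Aif1-/- and 19.4 to 21.9 TPM in WT libraries. Of 5 megakaryocyte and platelet markers, 4 could be tested and 3 were higher (Pf4, Treml1 and Ppbp), with summed levels of 264.7 to 277 TPM in Aif1-/- and 128 to 136 TPM in WT libraries. Of 4 dendritic cell markers, 2 could be tested and neither was called. The part that these markers play in the results was not tested, and values without WT replicate 3 are given with the results. RNA was taken from whole cultures, in which fewer cells of a type and less RNA per cell cannot be told apart.

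All 36 genes were well measured, with at least 440 reads in every library, and all 36 passed the filter on low counts. Levels here are normalized counts, that is, counts scaled for library size to the mean library, and a gene was called when edgeR's quasi-likelihood test gave it an adjusted p under 0.05. In Aif1-/- BMMs, 3 of the 36 genes were higher (Galc, Man2b1 and Manba) and 8 were lower (Arsb, Smpd1, Atp6v1b2, Gla, Atp6v1h, Lamp1, Atp6v0a1 and Atp6v1a), and 25 were not called. Among all 17406 genes tested, 18.6% were called, 8.04% as higher and 10.5% as lower, against 30.6%, 8.33% and 22.2% of the 36 genes. The share of higher genes was thus near that of all genes, and the share of lower genes was above it. All genes tested include ones with far fewer reads than these 36. With a filter of 50 counts in 3 libraries, 10.3% of 13580 genes were higher and 12.5% lower, and the shares of the 36 genes stayed at 8.33% and 22.2%. The changes were small. The median log2 fold change of the 36 genes was −0.14, against −0.004 for all genes tested, and its median size without regard to sign was 0.19 in the 36 genes and 0.20 in all genes tested. The largest difference was that of Arsb, at 0.642 times the WT level. For 20 of the 36 genes (55.6%) the Aif1-/- and WT libraries did not overlap, against 35.7% of all genes tested. Neither this share nor the shares called were computed for genes with read counts like those of the 36.

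**Figure D1:**
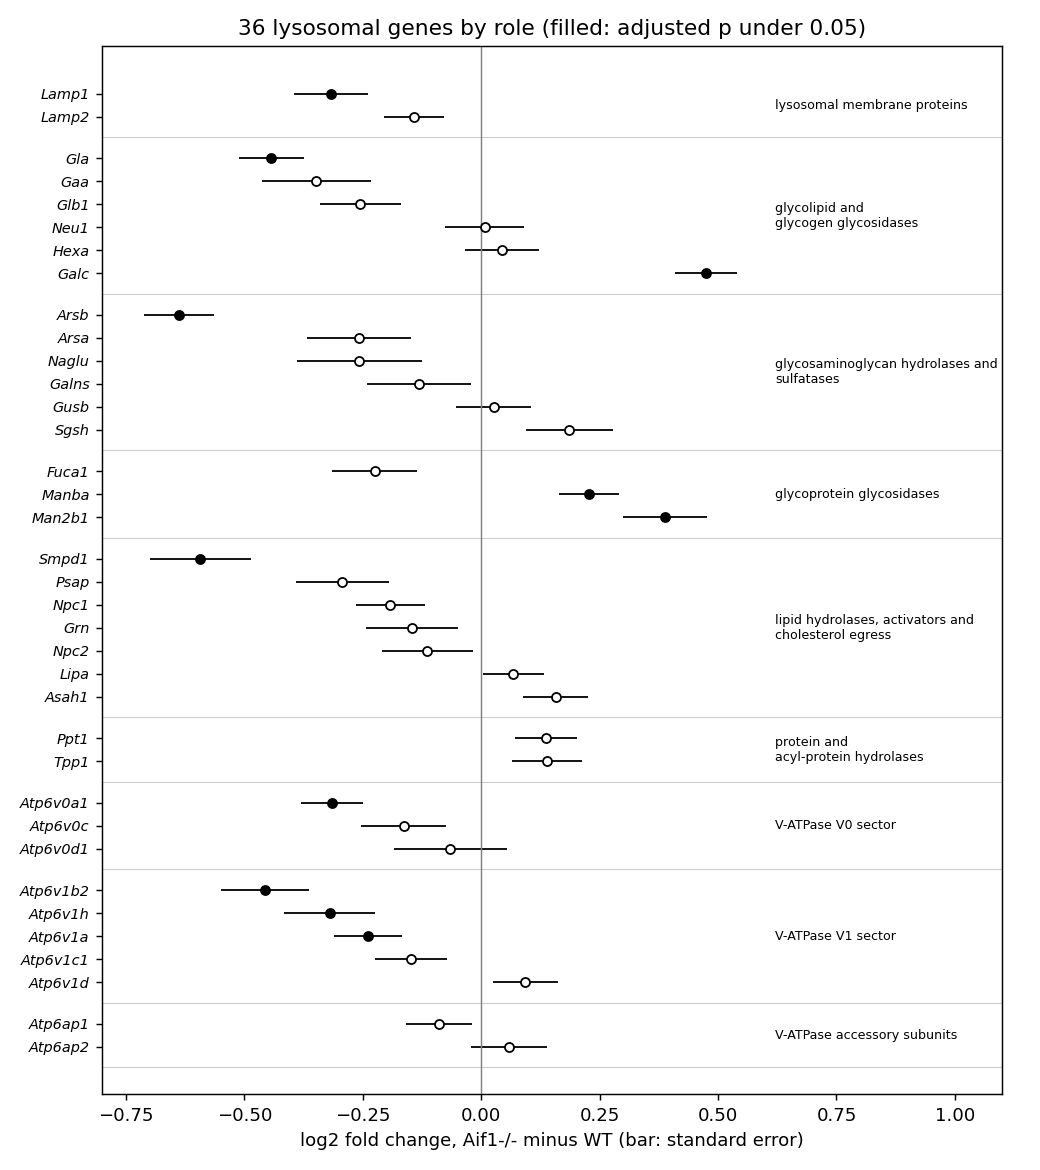
Log2 fold change (Aif1-/- minus WT, horizontal axis) of each of the 36 genes, grouped by role, with bars for the standard error and filled points for an adjusted p under 0.05. The 3 filled points right of 0 are Galc, Man2b1 and Manba, and the 8 filled points left of 0 reach −0.64 for Arsb.

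The 2 membrane proteins listed, LAMP1 and LAMP2, are heavily glycosylated proteins that line the lysosomal membrane. Lamp1 was lower in Aif1-/- BMMs. It had 29972, 29766 and 29440.4 normalized counts in Aif1-/- replicates 1 to 3, against 36439, 33713 and 40904 in WT replicates 1 to 3. All 3 Aif1-/- libraries lay below every WT library, and the WT libraries differed among themselves by more than the Aif1-/- libraries did. Lamp1 (chromosome 8, 13159161 to 13175338 of GRCm38) averaged 29726 ± 268 in Aif1-/- and 37019 ± 3630.4 in WT BMMs (SD, n = 3 each), which is 0.803 times the WT level (log2 fold change −0.32, standard error 0.078, adjusted p = 0.0166). The call was lost without Aif1-/- replicate 1, 2 or 3 (adjusted p = 0.0838, 0.0914 and 0.094) and without WT replicate 1 (adjusted p = 0.0546), with log2 fold changes of −0.33 to −0.30 in these fits. Lamp2, whose splice form LAMP-2A is the receptor of chaperone-mediated autophagy, had 18454, 18729 and 17495 normalized counts in Aif1-/- replicates 1 to 3, against 20707, 19258 and 20388 in WT replicates 1 to 3. The groups did not overlap here either, but the difference was not called (log2 fold change −0.14, standard error 0.064, adjusted p = 0.17).

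Among the 6 glycosidases of glycolipids and glycogen, Gla was lower and Galc was higher, and Gaa, Glb1, Neu1 and Hexa were not called. Gla (chromosome X, 134588149 to 134601125) encodes alpha-galactosidase A, the enzyme missing in Fabry disease, which removes galactose from globotriaosylceramide. Its levels were 3078, 3022 and 2960.0 normalized counts in the Aif1-/- libraries, against 4134, 3837 and 4346 in the WT libraries. The highest Aif1-/- library was thus well below the lowest WT library. The mean was 3020.0 ± 59 in Aif1-/- and 4105 ± 256 in WT BMMs (SD, n = 3 each), at a log2 fold change of −0.44 (adjusted p = 0.00112 with a standard error of 0.068). Galc (chromosome 12, 98202294 to 98259459) encodes galactosylceramidase, the enzyme missing in Krabbe disease, which degrades the myelin lipid galactosylceramide. Galc had 3019, 3015 and 3075 normalized counts in Aif1-/- replicates 1 to 3, against 2236, 2063 and 2255 in WT replicates 1 to 3. Each Aif1-/- library was above each WT library, and the Aif1-/- libraries lay within a narrow range. The mean level was 1.39 times that of WT, with 3036 ± 33.2 in Aif1-/- and 2185 ± 106 in WT BMMs (SD, n = 3 each), at a log2 fold change of 0.47 (adjusted p = 0.000537 with a standard error of 0.066). Gla and Galc stayed past the threshold in every fit that tested them, including those without each library in turn.

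Gaa encodes acid alpha-glucosidase, which degrades glycogen and is deficient in Pompe disease. It had 2152, 2158 and 2323 normalized counts in Aif1-/- replicates 1 to 3, against 2580.0, 2455 and 3401 in WT replicates 1 to 3. WT replicate 3 was far above the other WT libraries, and the adjusted p was 0.0633 (log2 fold change −0.35, standard error 0.12). It passed the threshold without WT replicate 3 (log2 fold change −0.18, adjusted p = 0.0355) and without WT replicate 2 (log2 fold change −0.43, adjusted p = 0.0159). DESeq2, run on all libraries, also called Gaa as lower. Glb1, the lysosomal beta-galactosidase, had 1609, 1564 and 1629 normalized counts in the Aif1-/- libraries, against 1797, 1781 and 2153 in the WT libraries. Its log2 fold change of −0.26 was not called (adjusted p = 0.0661), and it passed without WT replicate 2 (−0.30, adjusted p = 0.0291). Hexa, which encodes the alpha subunit of beta-hexosaminidase A and is mutated in Tay-Sachs disease, showed a log2 fold change of 0.04 (adjusted p = 0.785), with groups that overlapped. Neu1, the lysosomal sialidase, lies 235.0 kb from Aif1 on chromosome 17. It had 2157, 1942 and 2028 normalized counts in the Aif1-/- libraries, against 1951, 1899.7 and 2249.5 in the WT libraries, so the groups overlapped and the log2 fold change was 0.01 (adjusted p = 0.972).

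**Figure D2:**
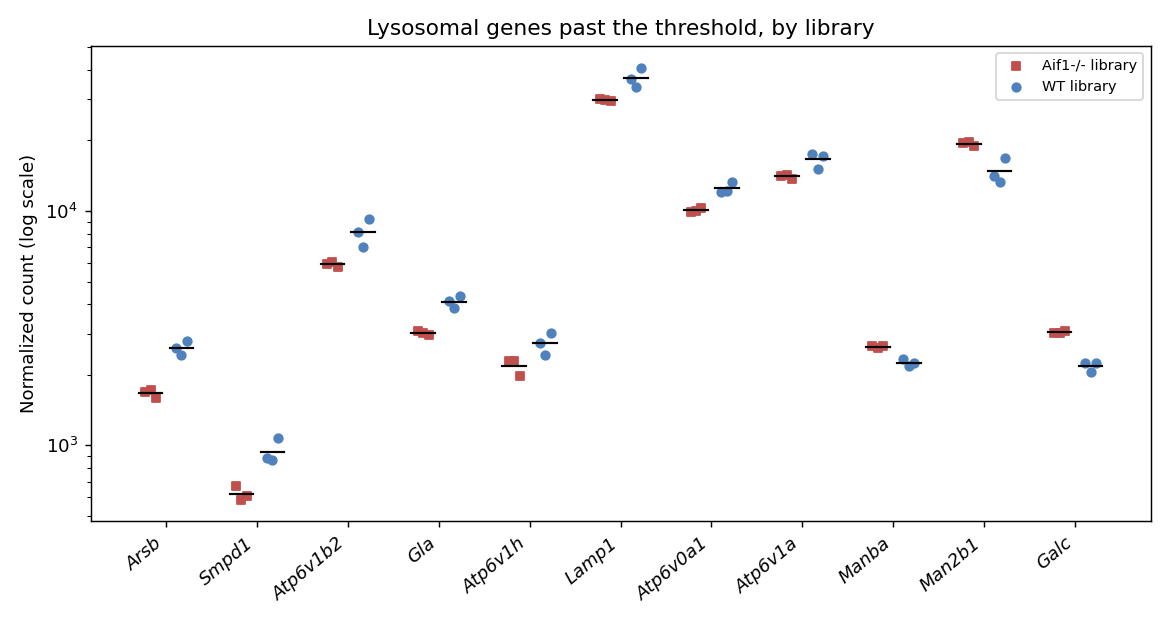
Normalized counts (log scale) of the 11 called genes in each library, with red squares for Aif1-/- and blue circles for WT libraries and a bar at each group mean. In each of the 11 genes the Aif1-/- and WT libraries do not overlap, and the WT points are the more scattered.

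Enzymes of glycosaminoglycan breakdown and related sulfatases made up 6 genes, of which Arsb was lower and none was higher. Arsb (chromosome 13, 93771630 to 93943016) encodes arylsulfatase B, which removes sulfate from N-acetylgalactosamine in dermatan and chondroitin sulfate. It had the largest change of the 36 genes. Arsb had 1694, 1719 and 1599 normalized counts in Aif1-/- replicates 1 to 3, against 2594, 2432 and 2781 in WT replicates 1 to 3. Every Aif1-/- library was far below every WT library. The mean was 1671 ± 63.7 in Aif1-/- and 2602 ± 175 in WT BMMs (SD, n = 3 each), or 0.642 times the WT level (log2 fold change −0.64, standard error 0.074, adjusted p = 0.00015), and the call held in every fit that tested it, with log2 fold changes of −0.68 to −0.58. Arsa, which removes sulfate from sulfatide, showed a log2 fold change of −0.26 (adjusted p = 0.149), with groups that did not overlap. It passed without WT replicate 2 (log2 fold change −0.35, adjusted p = 0.0287). Naglu and Sgsh both act on heparan sulfate, Naglu as alpha-N-acetylglucosaminidase and Sgsh as the enzyme that removes sulfate from glucosamine. Naglu had 2153, 2284 and 2256 normalized counts in the Aif1-/- libraries, against 2442, 2203 and 3348 in the WT libraries, with WT replicate 3 again above the rest, and the groups overlapped (log2 fold change −0.26, adjusted p = 0.244). Naglu passed without WT replicate 2 (−0.37, adjusted p = 0.0421), and without WT replicate 3 its log2 fold change was −0.05. Sgsh was the highest of the genes not called, at a log2 fold change of 0.19 (adjusted p = 0.218), and it passed without WT replicate 3 (0.29, adjusted p = 0.00593). Galns, which removes sulfate from keratan sulfate, and Gusb, beta-glucuronidase, had log2 fold changes of −0.13 and 0.03 (adjusted p = 0.504 and 0.876).

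Of the 3 glycosidases of glycoproteins, Man2b1 and Manba were higher and Fuca1 was not called, where 8.04% of all genes tested were higher. Man2b1 (chromosome 8, 85083270 to 85098282) encodes lysosomal alpha-mannosidase. It had 19427, 19644 and 18912 normalized counts in Aif1-/- replicates 1 to 3, against 14157, 13287 and 16858 in WT replicates 1 to 3. The groups did not overlap, although WT replicate 3 came closer to the Aif1-/- libraries than the other WT libraries did. The means were 19328 ± 376 in Aif1-/- and 14767 ± 1862 in WT BMMs (SD, n = 3 each), 1.31 times the WT level (log2 fold change 0.39, standard error 0.088, adjusted p = 0.0109). Without Aif1-/- replicate 1, Aif1-/- replicate 2 or WT replicate 1 the adjusted p was 0.053, 0.0577 and 0.0634, and the log2 fold change 0.39, 0.38 and 0.36. Manba (chromosome 3, 135485611 to 135571404) encodes beta-mannosidase, which cleaves the last mannose left from N-glycans. Manba levels were 2649, 2598 and 2662 normalized counts in the Aif1-/- libraries, against 2332, 2170.4 and 2255 in the WT libraries. The difference was small but larger than the spread within either group, with a mean of 2637 ± 33.7 in Aif1-/- and 2253 ± 80.7 in WT BMMs (SD, n = 3 each), at a log2 fold change of 0.23 (adjusted p = 0.0314 with a standard error of 0.063). This call was lost without Aif1-/- replicate 1, 2 or 3 (adjusted p = 0.149, 0.116 and 0.144). Fuca1, alpha-fucosidase, had a log2 fold change in the other direction, −0.23 (adjusted p = 0.123), and it passed without WT replicate 2 (−0.31, adjusted p = 0.0124).

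Of the 7 genes for lipid hydrolases, their activators and the export of cholesterol, Smpd1 was lower and none was higher. Smpd1 (chromosome 7, 105554360 to 105558389) encodes acid sphingomyelinase, which splits sphingomyelin into ceramide and phosphocholine. Smpd1 had 674, 586 and 609.6 normalized counts in Aif1-/- replicates 1 to 3, against 881, 868 and 1075 in WT replicates 1 to 3. The groups lay well apart, and WT replicate 3 was the highest library. The mean was 623 ± 45.5 in Aif1-/- and 941 ± 116 in WT BMMs (SD, n = 3 each), 0.663 times the WT level (log2 fold change −0.59, standard error 0.11, adjusted p = 0.00285), and the call held in every fit run. Asah1, acid ceramidase, which acts on the ceramide that sphingomyelinase releases, was at a log2 fold change of 0.16 with groups that did not overlap, and it was not called (adjusted p = 0.154). Psap encodes prosaposin, the precursor of the saposins that present lipids to several of these enzymes. It had 56726, 57799 and 56391 normalized counts in Aif1-/- replicates 1 to 3, against 68466, 60227 and 80731 in WT replicates 1 to 3. WT replicate 3 was the highest and WT replicate 2 came close to the Aif1-/- libraries, and the log2 fold change was −0.29 (standard error 0.10, adjusted p = 0.0659). Without WT replicate 2 it was −0.39 and passed the threshold (adjusted p = 0.00394). DESeq2, run on all libraries, also called Psap as lower. Npc1 and Npc2, which hand cholesterol out of the lysosome, had log2 fold changes of −0.19 and −0.11 (adjusted p = 0.104 and 0.5). Both passed without WT replicate 2 (adjusted p = 0.0357 and 0.0397). Lipa, lysosomal acid lipase, was at 0.07 (adjusted p = 0.569) and Grn, progranulin, which is cut into granulins in the lysosome, was at −0.15 (adjusted p = 0.37) on the same log2 scale, with groups that overlapped for both.

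Neither of the 2 hydrolases of proteins and acylated proteins was called. Ppt1, which removes palmitate from proteins, had 4109, 4117 and 4206 normalized counts in Aif1-/- replicates 1 to 3, against 3969.6, 3765 and 3574 in WT replicates 1 to 3. The groups did not overlap, with 4144 ± 53.8 in Aif1-/- and 3769 ± 198 in WT BMMs (SD, n = 3 each), at a log2 fold change of 0.14 (adjusted p = 0.199 with a standard error of 0.065). Cap1, a gene on the opposite strand that overlaps an exon of Ppt1, had more normalized counts than Ppt1, with means of 26230 in Aif1-/- and 21700 in WT BMMs, and reads of the 2 genes may not be separated. Tpp1, tripeptidyl peptidase, showed a log2 fold change of 0.14 (adjusted p = 0.251), and it passed without WT replicate 3 (0.21, adjusted p = 0.00722).

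Of the 10 V-ATPase genes, 4 were lower in Aif1-/- BMMs and none was higher. Of the other 26 genes, 4 were lower and 3 were higher. Among all genes tested, 10.5% were lower and 8.04% higher. The difference between these shares was not tested. In the V0 sector, Atp6v0a1 (chromosome 11, 101009452 to 101063719) encodes an isoform of the large subunit a, through which protons pass. Its levels were 9927, 9975 and 10266 normalized counts in the Aif1-/- libraries, against 12078, 12121 and 13339 in the WT libraries. The WT libraries were all higher, with means of 10056 ± 184 in Aif1-/- and 12513 ± 716 in WT BMMs (SD, n = 3 each), at a log2 fold change of −0.32 (adjusted p = 0.00674 with a standard error of 0.065). The call was lost without Aif1-/- replicate 1 or 2 (adjusted p = 0.0626 and 0.061). Atp6v0c, the proteolipid of the rotating ring, and Atp6v0d1, which couples the ring to the V1 stalk, had log2 fold changes of −0.16 and −0.07 (adjusted p = 0.272 and 0.791). The sign of Atp6v0d1 turned without WT replicate 3, to 0.10.

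The V1 sector, with 5 genes listed, held 3 of the lower genes, where 10.5% of all genes tested were lower. Atp6v1b2 (chromosome 8, 69088646 to 69113711) encodes subunit B, which alternates with the catalytic subunit A in the ATP-hydrolysing head. It had 5941, 6084 and 5750.1 normalized counts in Aif1-/- replicates 1 to 3, against 8172, 7028 and 9205 in WT replicates 1 to 3. The WT libraries spread widely, yet each was above every Aif1-/- library. Means were 5925 ± 167 in Aif1-/- and 8135 ± 1089 in WT BMMs (SD, n = 3 each), at a log2 fold change of −0.46 (adjusted p = 0.00605 with a standard error of 0.093), and the call held without each library in turn. Atp6v1a (chromosome 16, 44085402 to 44139705), the catalytic subunit A itself, had 14121, 14305 and 13725 normalized counts in the Aif1-/- libraries, against 17427, 15143 and 17187 in the WT libraries. Here WT replicate 2 came closest to the Aif1-/- libraries, and the means were 14050.4 ± 296 in Aif1-/- and 16586 ± 1255 in WT BMMs (SD, n = 3 each), at a log2 fold change of −0.24 (adjusted p = 0.0419 with a standard error of 0.071). Atp6v1h (chromosome 1, 5070018 to 5162529) encodes the regulatory subunit H and had 2298, 2301 and 1969.8 normalized counts in the Aif1-/- libraries, against 2745, 2430.0 and 3029 in the WT libraries. The groups did not overlap, and the means were 2189.8 ± 191 in Aif1-/- and 2735 ± 299.5 in WT BMMs (SD, n = 3 each), at a log2 fold change of −0.32 (adjusted p = 0.0435 with a standard error of 0.10). Both of these calls were lost without Aif1-/- replicate 1, 2 or 3 and without WT replicate 1, with adjusted p of 0.175, 0.154, 0.206 and 0.149 for Atp6v1a and 0.103, 0.105, 0.221 and 0.122 for Atp6v1h. Atp6v1c1, which helps hold V1 to V0, showed a log2 fold change of −0.15 (adjusted p = 0.234), and it passed without WT replicate 2 (−0.21, adjusted p = 0.0285). Atp6v1d, a part of the central shaft, had 0.09 (adjusted p = 0.432). The accessory subunit Atp6ap1 had 7957, 7615 and 7782 normalized counts in Aif1-/- replicates 1 to 3, against 8396, 7620.1 and 8819 in WT replicates 1 to 3, with groups that overlapped (log2 fold change −0.09, standard error 0.070, adjusted p = 0.472). Atp6ap2, the (pro)renin receptor, was at a log2 fold change of 0.06 (adjusted p = 0.704).

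Of the 11 called genes, Lamp1, Galc, Arsb, Manba, Atp6v1b2 and Atp6v1h have a gene annotated on the opposite strand, as do 13 of the 36 genes. The counting may not have separated the strands. Grtp1 overlaps an exon of Lamp1 and had means of 55.8 normalized counts in Aif1-/- and 125 in WT BMMs. Slc18a1, opposite Atp6v1b2, had 21.9 in Aif1-/- and 45.7 in WT BMMs, and Oaz2-ps, a pseudogene opposite Manba, had 127 in Aif1-/- and 147 in WT BMMs, both with no exon shared. Rgs20 overlaps an exon of Atp6v1h and had 0 in Aif1-/- and 7.44 in WT BMMs. Gm47210, Gm25534 and Gm26527 lie opposite Arsb, and 2 of them overlap an exon of it. Gm25534 and Gm26527 had 0 in Aif1-/- and 0.283 and 0 in WT BMMs. Levels of Gm47210 and of the gene that overlaps an exon of Galc were not analysed here. When only genes with no such partner were fitted, 23 of the 36 genes remained, of which 1 was higher and 4 were lower.

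The 36 genes spanned a wide range of levels, compared here per length of exon as TPM. Psap was the most abundant in both genotypes, at 2113, 2158 and 2113 TPM in Aif1-/- replicates 1 to 3, against 2644, 2488 and 2692 TPM in WT replicates 1 to 3. Grn, Lamp1 and Hexa followed, with mean levels of 1311, 1139 and 1027 TPM in Aif1-/- and 1452, 1424 and 999.7 TPM in WT BMMs. Grn and Lamp1 did not overlap in the Aif1-/- libraries, nor did Lamp1 and Hexa, whereas in WT libraries Grn (1399 to 1505 TPM) and Lamp1 (1399 to 1443 TPM) overlapped. At the low end, Galc was at a mean of 20.9 TPM in Aif1-/- and 15.2 TPM in WT BMMs, the lowest of the 36 genes in WT, and Smpd1 was at 19.1 and 29.0 TPM, the lowest in Aif1-/- BMMs. The order of the 2 genes in TPM therefore differed between genotypes, but in Aif1-/- replicate 1 they were close, at 20.74 and 20.65 TPM. Their places also rest on the exon lengths used, which join all annotated exons of a gene, at 14879 bases for Galc and 3337 for Smpd1. In normalized counts, which are not scaled for length, Galc was above Smpd1 in both genotypes. Arsb, Atp6v1h, Arsa and Atp6v0c were also at the low end, with mean levels of 28.4, 23.0, 23.5 and 23.7 TPM in Aif1-/- and 44.4, 28.9, 28.1 and 26.9 TPM in WT BMMs. Summed over the 36 genes, the level was 9931, 9980 and 9849 TPM in Aif1-/- replicates 1 to 3, against 11230, 10860 and 10930 TPM in WT replicates 1 to 3. The sums did not overlap. Prosaposin and Lamp1 weigh heavily in them. The sum of the 94 other lysosomal genes described below went the other way. It was 11250, 11270 and 11150 TPM in Aif1-/- replicates 1 to 3, against 10290, 9986 and 9642 TPM in WT replicates 1 to 3. Lyz2 and Hgsnat weigh heavily in that sum. Per kilobase of exon they had means of 20110 and 8434 normalized counts in Aif1-/- BMMs, against 11944.5 and 1449 in WT BMMs. Of the 89 of these genes that were tested, 33 had a log2 fold change above 0 and 56 below 0. The 10 V-ATPase genes summed to 1531, 1536 and 1505 TPM in Aif1-/- replicates 1 to 3, against 1773, 1676 and 1624 TPM in WT replicates 1 to 3.

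Most of the 36 genes differed in the same direction between WT libraries. Relative to the mean of the WT libraries, their median log2 level was −0.11, −0.15 and −0.16 in Aif1-/- replicates 1 to 3, against 0.00, −0.13 and 0.14 in WT replicates 1 to 3. WT replicate 2 was thus as low as the Aif1-/- libraries by this median and WT replicate 3 was high, while the median over all genes tested stayed between −0.02 and 0.00 in every library. In the 36 genes, WT replicate 3 was the highest of the WT libraries in 28 and the lowest in 3, against 39.9% and 38% of all genes tested. The SD of the normalized counts between libraries, as a percent of the mean, was 0.562 to 9.98 (median 2.15) in Aif1-/- and 1.03 to 22.7 (median 9.58) in WT BMMs, and was larger in WT for 35 of the 36 genes. The gap was smaller on the TPM scale, where the median was 2.11 in Aif1-/- and 5.08 in WT BMMs and the SD was larger in WT for 29 genes. The log2 level in WT replicate 3, relative to the mean of the other WT libraries, had a median over the 36 genes of 0.21 in normalized counts and −0.05 in TPM, against −0.26 in TPM for all genes tested. Without WT replicate 3 the median log2 fold change of the 36 genes was −0.04, and without WT replicate 2 it was −0.21. With the share of reads matched to no gene as covariate it was −0.11.

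**Figure D3:**
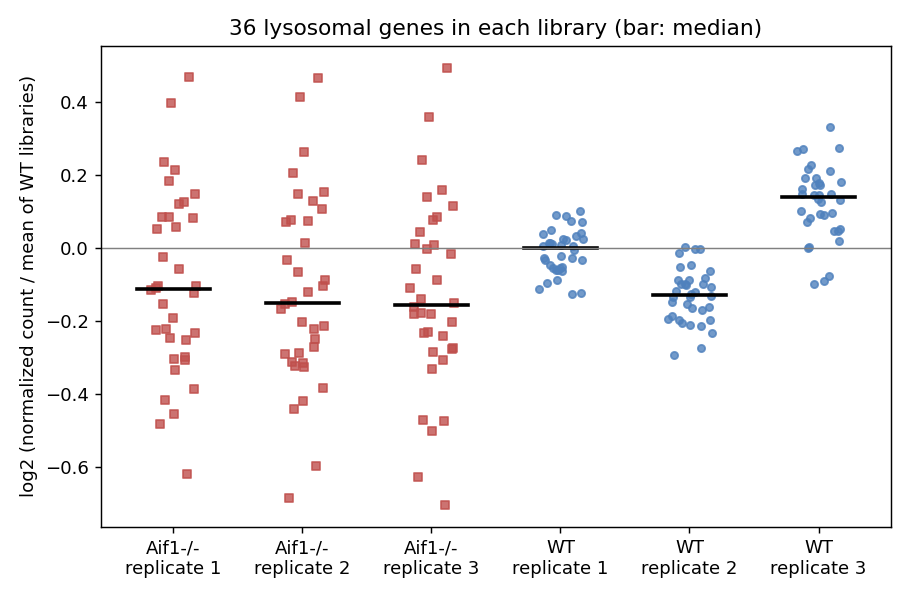
Log2 normalized count of each of the 36 genes relative to its mean over the WT libraries (vertical axis), in each library, with a bar at the median. The medians are −0.11, −0.15 and −0.16 in Aif1-/- replicates 1 to 3, and WT replicates 1 to 3 lie at 0.00, −0.13 and 0.14.

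The number of calls moved with the libraries left out. With all 6 libraries, 3 genes were higher and 8 lower. Without Aif1-/- replicates 1, 2 and 3 in turn, 1, 1 and 2 were higher and 4, 4 and 5 were lower. Without WT replicates 1, 2 and 3 in turn, 2, 3 and 5 were higher and 5, 17 and 9 were lower. The calls over all genes moved as well. They covered 4.92%, 4.98% and 5.04% of all genes tested as higher and 6.56%, 6.73% and 6.83% as lower without Aif1-/- replicates 1, 2 and 3 in turn, and 6.28%, 10.1% and 13.6% as higher and 8.26%, 12.3% and 14.0% as lower without WT replicates 1, 2 and 3 in turn. The calls of Gla, Galc, Arsb and Smpd1 held in every fit that tested them, and 12 of the 36 genes were called in none.

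**Figure D4:**
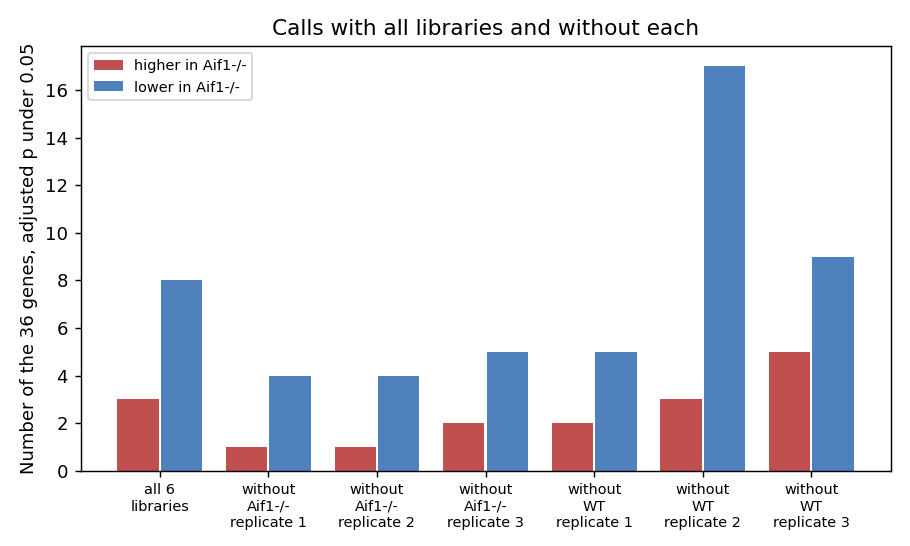
Number of the 36 genes called higher (red) and lower (blue) in Aif1-/- BMMs with all 6 libraries and without each library in turn. The count of lower genes is 8 with all libraries, 4 or 5 without an Aif1-/- library or WT replicate 1, 17 without WT replicate 2 and 9 without WT replicate 3.

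Many promoters of lysosomal genes hold an E-box, CACGTG, that factors of the MiT/TFE family bind, mostly as part of a longer element known from human genes. The promoter windows of RefSeq (GRCm38.p6, 250 bases before to 50 bases after the start) were searched for CACGTG, whose reverse complement is the same. Of the 36 genes, 30 matched a window, and 9 of the 30 (30%) held the motif, against 8.09% of 27025 genes. The 27025 are all genes with a window, and not only those tested in these cells. With 1 more base, TCACGTG on either strand, which contains the shorter motif, the same 9 genes held it, against 4.29% of all genes. The 9 genes were Lamp1, Gaa, Gla, Glb1, Naglu, Sgsh, Arsa, Atp6v0d1 and Atp6v1a. Galns, Asah1, Npc1, Atp6v1b2, Atp6v1c1 and Atp6v1h matched no window. Of the 9 genes, Lamp1, Gla and Atp6v1a were lower in Aif1-/- BMMs and none was higher. Of all 36 genes, 22.2% were lower and 8.33% higher, and of all genes tested, 10.5% and 8.04%. Arsb, Smpd1 and Atp6v0a1 were lower and Galc, Man2b1 and Manba higher, and they held no CACGTG in their windows. Both kinds of promoter were thus found among lower genes, and a link between motif and call was not tested. The stretches with the motif are shown for the 3 called genes and for 3 that were not called, 5′ to 3′ on the strand of the gene, with CACGTG in capitals. They are at chr8:13159080-13159171, plus strand (Lamp1), chrX:134601174-134601252, minus strand (Gla), chr16:44139365-44139410, minus strand (Atp6v1a), chr9:114401010-114401055, plus strand (Glb1), chr11:101070001-101070046, plus strand (Naglu) and chr11:119355514-119355559, minus strand (Sgsh).
Lamp1: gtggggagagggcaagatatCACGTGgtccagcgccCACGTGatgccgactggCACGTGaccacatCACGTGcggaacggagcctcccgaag
Gla: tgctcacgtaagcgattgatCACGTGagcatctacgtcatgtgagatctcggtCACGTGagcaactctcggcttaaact
Atp6v1a: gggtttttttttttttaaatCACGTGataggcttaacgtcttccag
Glb1: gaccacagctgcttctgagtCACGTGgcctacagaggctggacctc
Naglu: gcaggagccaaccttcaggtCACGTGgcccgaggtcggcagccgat
Sgsh: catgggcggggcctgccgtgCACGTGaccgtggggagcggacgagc
Lamp1 held 4 copies, between 61 and 15 bases before its start, and Gla held 2, at 227 and 194 bases before its start. The single copies lay 131 bases before the start of Atp6v1a, 48 before Glb1, 73 before Naglu and 29 before Sgsh. All starts here are those of the RefSeq windows, and they can differ from the ends of the gene spans given above. The stretch of Atp6v1a, for example, lies inside the span given for that gene. The log2 fold changes of these genes were −0.32, −0.44, −0.24, −0.26, −0.26 and 0.19 in the same order. A match is a string of letters in the reference and no measure of binding.

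Around the 36 genes, 94 other lysosomal genes were listed in 6 groups, 89 had enough counts to be tested, and 8 were higher (8.99%) and 13 lower (14.6%) in Aif1-/- BMMs, against 8.04% and 10.5% of all genes tested. The groups held changes far larger than any among the 36 genes. Of 26 other hydrolases and activators, 4 were higher and 3 lower (Scpep1, Man2b2 and Idua). The gene with the largest rise was Hgsnat (chromosome 8, 25944453 to 25976753), whose product acetylates the glucosamine that Naglu then removes from heparan sulfate. Hgsnat had 28432, 27735 and 27458 normalized counts in Aif1-/- replicates 1 to 3, against 4485, 4366 and 5517 in WT replicates 1 to 3. The Aif1-/- libraries were alike and several-fold above every WT library, with means of 27875 ± 502 in Aif1-/- and 4789.6 ± 633 in WT BMMs (SD, n = 3 each), 5.82 times the WT level (log2 fold change 2.54, standard error 0.10, adjusted p = 5.29e-08). Sgsh and Naglu, before and after it in the same pathway, were not called. Lyz2, macrophage lysozyme and also one of the macrophage markers, had 26562, 27478 and 25355 normalized counts in the Aif1-/- libraries, against 16961, 13059 and 17137 in the WT libraries (log2 fold change 0.75, standard error 0.10, adjusted p = 0.000455). Gm2a, the activator that presents ganglioside to beta-hexosaminidase A, was 1.46 times the WT level (log2 fold change 0.54, standard error 0.078, adjusted p = 0.000714), and Ids, which removes sulfate from iduronate in dermatan and heparan sulfate, was 1.47 times the WT level (log2 fold change 0.55, standard error 0.083, adjusted p = 0.000937).

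Of 15 other V-ATPase genes, 10 could be tested, none was higher and 2 were lower, where 8.04% and 10.5% of all genes tested were. Atp6v0d2, an isoform of subunit d that is abundant in osteoclasts, had 105, 124 and 101 normalized counts in the Aif1-/- libraries, against 436, 340.2 and 419.7 in the WT libraries (log2 fold change −1.86, standard error 0.15, adjusted p = 1.10e-05). It is also one of the osteoclast markers given above, of which Calcr was at 0 and Acp5 had reads in 1 library. Its counterpart among the 36 genes, Atp6v0d1, was more abundant, at 259 TPM in Aif1-/- and 270.3 TPM in WT BMMs, and was not called. Tcirg1, an isoform of subunit a that osteoclasts need to resorb bone, had 4769, 4876 and 5387 normalized counts in the Aif1-/- libraries, against 5890.0, 7795 and 7274 in the WT libraries (log2 fold change −0.48, standard error 0.10, adjusted p = 0.00768). Its call was lost without Aif1-/- replicate 1 (adjusted p = 0.052). Of 28 other membrane proteins and transporters, Scarb2 was higher, at 1.38 times the WT level (log2 fold change 0.46, standard error 0.074, adjusted p = 0.00135), and 4 genes were lower. Scarb2 encodes LIMP-2, the receptor that carries glucocerebrosidase to lysosomes. Mcoln2, a cation channel, had 1451, 1458 and 1431 normalized counts in the Aif1-/- libraries, against 2088, 2115 and 1972 in the WT libraries (log2 fold change −0.51, standard error 0.065, adjusted p = 0.000322). Mcoln1, the main lysosomal channel of that family, was also lower. So were Clcn7, the chloride exchanger, and Mfsd1, with log2 fold changes of −0.36 and −0.27 (adjusted p = 0.00635 and 0.0164). The call of Clcn7 was lost without Aif1-/- replicate 1 (adjusted p = 0.0566), and that of Mfsd1 without any of the Aif1-/- libraries or WT replicate 1 (adjusted p = 0.104, 0.0973, 0.11 and 0.0682).

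**Figure D5:**
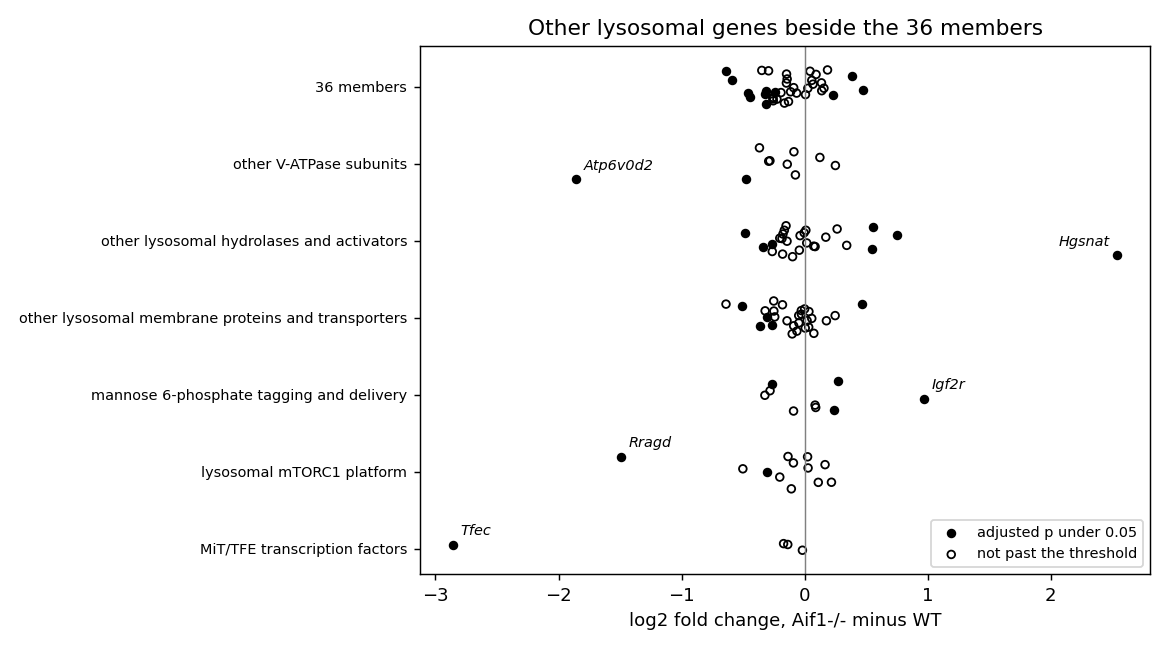
Log2 fold change (Aif1-/- minus WT) of the 36 genes and of the tested genes of the 6 other lysosomal groups, 1 point per gene, filled where the adjusted p was under 0.05. Hgsnat (2.54), Igf2r (0.97), Rragd (−1.49), Atp6v0d2 (−1.86) and Tfec (−2.86) lie outside the range of the 36 genes, −0.64 to 0.47.

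Among 9 genes that tag hydrolases with mannose phosphate and deliver them, 3 were higher and 1 was lower, where 8.04% and 10.5% of all genes tested were. Igf2r, the large mannose phosphate receptor, had 3673, 3799.6 and 3591 normalized counts in Aif1-/- replicates 1 to 3, against 1866, 1828 and 1936 in WT replicates 1 to 3. The groups were far apart, with means of 3688 ± 105 in Aif1-/- and 1877 ± 54.7 in WT BMMs (SD, n = 3 each), at a log2 fold change of 0.97 (adjusted p = 2.60e-06 with a standard error of 0.064). M6pr, the smaller receptor, and Gnptab, part of the enzyme that makes the tag, were at 1.21 and 1.18 times the WT level (log2 fold changes 0.27 and 0.24, adjusted p = 0.0114 and 0.018). Gga2, a clathrin adaptor of both receptors, was lower (log2 fold change −0.27, adjusted p = 0.017). These 3 calls were lost without some libraries. Without Aif1-/- replicate 1 the adjusted p was 0.089 for M6pr, 0.132 for Gnptab and 0.119 for Gga2, and without Aif1-/- replicate 2 it was 0.0686, 0.0996 and 0.106. Without Aif1-/- replicate 3 the calls of Gnptab and Gga2 were lost (adjusted p = 0.0687 and 0.0916), and without WT replicate 1 that of Gnptab was (adjusted p = 0.0584).

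The lysosomal surface also holds the platform on which mTORC1 senses nutrients. Of its 12 genes listed, none was higher and Rragd and Lamtor3 were lower, where 8.04% and 10.5% of all genes tested were. Rragd, a Rag GTPase, had 999.8, 991 and 898 normalized counts in Aif1-/- replicates 1 to 3, against 2795, 2529 and 2798 in WT replicates 1 to 3. No library of one genotype came near the other, and the means were 963 ± 56.4 in Aif1-/- and 2707 ± 154 in WT BMMs (SD, n = 3 each), at a log2 fold change of −1.49 (adjusted p = 5.09e-07 with a standard error of 0.077). Lamtor3, a scaffold of the Ragulator complex, had 1154, 1197 and 1156 normalized counts in the Aif1-/- libraries, against 1454, 1410.1 and 1464 in the WT libraries (log2 fold change −0.30, standard error 0.066, adjusted p = 0.00911), and its call was lost without Aif1-/- replicate 1, 2 or 3 (adjusted p = 0.0771, 0.0524 and 0.0675). The MiT/TFE transcription factors bind E-boxes of the kind shown above. Of these 4 genes, Tfec, the member known from macrophages, was lower, with 171, 165 and 189.6 normalized counts in Aif1-/- replicates 1 to 3, against 1259, 1370.3 and 1175 in WT replicates 1 to 3. The means were 175 ± 12.9 in Aif1-/- and 1268 ± 98.2 in WT BMMs (SD, n = 3 each), 0.138 times the WT level (log2 fold change −2.86, standard error 0.10, adjusted p = 4.70e-08). Tfeb, Tfe3 and Mitf were not called, with log2 fold changes of −0.02, −0.17 and −0.14 (adjusted p = 0.945, 0.198 and 0.165). Tfeb had means of 483 in Aif1-/- and 488 in WT BMMs, and Tfe3 had 2381 and 2680.3 normalized counts.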

How the data were processed

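Ribosomal RNA was removed and single-end reads were made. By the methods and the submitters' notes, the authors used Trim Galore 0.5, TopHat2 2.0.13 on GRCm38 (a read was kept at no more than 1 place) and HTSeq 0.6.1p1. The deposited values were raw counts per Ensembl gene, with 5 summary entries that were left out of library sizes. Of the counted reads, 25.5% to 40.4% matched no gene and 4.55% to 7.15% were ambiguous. Genes with near-identical copies could lose reads, and genes that overlap on opposite strands may share them.

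The counts were fitted on genotype with edgeR 4.0.16 (R 4.3.3, limma 3.58.1; quasi-likelihood, TMM, default filter), and p was adjusted by Benjamini-Hochberg over 17406 genes. Standard errors are the absolute log2 fold change over the root of F. At this sample size (3 and 3), exact permutation for 1 gene reaches a two-sided p of 0.1 at best. TPM values came from the counts and GENCODE M21 exon lengths (47224 of 47729 genes matched). Gene totals of 17707986 to 29314253 set the precision. Replicates differed beyond sampling noise (chi-square per gene 2.52 to 49.8).

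The 36 genes and all lists were chosen with earlier results of these data known, so no list was tested. All 36 genes are accounted for. Library values were planned for called genes with an absolute log2 fold change of at least 0.5 and for the smallest adjusted p in each of 9 role groups. In the other lists, up to 4 called genes of smallest adjusted p are given with statistics. Scpep1, Man2b2, Idua, Mcoln1, Tfeb, Tfe3 and Mitf fall outside these rules and were added after their values were seen. The same holds for the library values of Gla, Manba, Atp6v1a, Atp6v1h, Gaa, Glb1, Neu1, Naglu, Psap and Lamp2. Alternatives were DESeq2 1.42.0, its size factors, limma-voom with quality weights, no filter, a filter of 50 counts in 3 libraries, blocking on replicate number, leaving out each library, the share of reads matched to no gene as covariate, a 1.2-fold test, leaving aside genes with a partner on the other strand, and a longer motif. Scaling to total counts and to the upper quartile was chosen after seeing the data.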

Additional observations from a re-analysis of the deposited data

How the results depend on the processing

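Of the 36 genes, 3 were higher and 8 lower in Aif1-/- BMMs, and 4 of these calls (Gla, Galc, Arsb and Smpd1) held in all fits that tested them. limma-voom with quality weights called 5 as higher and 16 as lower (all genes, 2522 and 2944), and 23 of the other lysosomal genes as lower. With the share of reads matched to no gene as covariate the numbers were 6 and 17 (all genes, 2682 and 2839, other lysosomal genes 14 and 25). Among genes with no gene on the other strand they were 1 and 4 (785 and 1070 of all genes, 5 other lysosomal genes higher), since fewer genes were tested. The test against a 1.2-fold change gave 1 and 3, namely Galc and Gla, Arsb and Smpd1 (744 and 1102, 5 other lysosomal genes lower), a stricter test by construction. Leaving out each library in turn gave 1 to 5 higher and 4 to 17 lower genes of the 36, 874 to 2404 higher and 1166 to 2485 lower of all genes, and 6 to 13 higher and 5 to 19 lower of the other lysosomal genes. The median log2 fold change of the 36 genes was −0.044 without WT replicate 3 and −0.21 without WT replicate 2, against −0.14 with all libraries. The cause was not tested, and fewer samples were fitted in each of these. DESeq2 called 3 and 10 (all genes, 1465 and 1790 of 26934), and the 2 further genes it called were Gaa and Psap. Scaling to total counts called 3 and 12 (all genes, 1460 and 1855), and scaling to the upper quartile 3 and 11 (1486 and 1846).

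Of the 36 genes, 30 kept their sign in every fit. The other 6, called in none, turned in some. Hexa ranged over −0.015 to 0.129, Neu1 over −0.036 to 0.093, Gusb over −0.045 to 0.099, Galns over −0.215 to 0.029, Atp6v0d1 over −0.188 to 0.099 and Atp6ap2 over −0.011 to 0.111 when each library was left out, and Atp6v0d1 was at 0.009 with the covariate. The cause was not tested.

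Deviations of same-numbered libraries correlated at 0.06, −0.075 and −0.086, against −0.074 to 0.132 for libraries of different number. No pairing by replicate number was seen, but so few libraries cannot exclude one. With the replicate block, 2 of the 36 genes were higher and 7 lower (1267 and 1605 of all genes). Manba, Atp6v1a and Atp6v1h were not called there (adjusted p = 0.0619, 0.0859 and 0.0764), and neither was Gnptab (adjusted p = 0.051), while Gaa was (adjusted p = 0.0333). The 36 genes had at least 440 reads in each library, and low counts limit only the other lists, where 5 of 94 genes could not be tested.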
